A study of Mus musculus with 11 samples.

Results

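The cells described here are Higd1b-positive pericyte-like mural cells of the mouse liver, taken from 2 single-cell libraries of hepatic mesenchyme made by 10X Chromium. A cell was a member if it had at least 300 genes, at most 30% mitochondrial unique molecular identifiers (UMIs), at least 1 UMI of Higd1b, and at most 3 UMIs in all of the fibroblast genes Cd34, Clec3b and Dpt. In total 1538 of 11385 cells of these libraries met the rule, out of 30999 cells in all 5 10X libraries of the study. The members were chosen on measured values, and every difference of the 10X cells is therefore a description without a test. They were compared with 3862 cells of the same libraries that had no Higd1b UMI and at least 10 UMIs in all of the contractile genes Acta2, Tagln, Myh11 and Tpm2, called Higd1b-negative contractile cells.

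The study profiled mesenchymal cells of healthy and injured liver. All mice were adult male Pdgfrb-BAC-eGFP reporters on a C57BL/6 background, in which an artificial chromosome with Pdgfrb regulatory sequence drives GFP. Cells were sorted as GFP-positive and negative for CD45 and CD102, and every group shares the reporter. The paper describes 2 digestion protocols with differing gating strategies, so groups of different isolations need not share the gate. For the libraries used here, livers were flushed with PBS, cut up and dissociated with pronase, collagenase B and DNase, a procedure the labels call PF isolation. 1 library pooled 3 uninjured mice, and the other pooled 3 mice given carbon tetrachloride (CCl4) in olive oil by intraperitoneal injection 2 times a week for 6 weeks. Plates of the full-length method Smart-seq2 (SSeq2) held wells of uninjured mice, of the same CCl4 model and of livers 14 days after bile duct ligation (BDL). These wells, which the rule did not use, carry the tests. They were put into classes by their own reads of the 8 genes of the rule, and those genes were left out of the gene tests. BDL blocks bile outflow, while CCl4 injures hepatocytes around the central vein.

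Pericytes are mural cells that wrap capillaries and the small vessels on either side of them, embedded in the basement membrane they share with the endothelium. They are recruited by endothelial PDGF-B acting on the receptor PDGFRβ, and Notch3 signalling keeps them in place. Vascular smooth muscle cells (VSMCs), the mural cells of larger vessels, are built for contraction, and in the liver lobule the sinusoidal position of a pericyte is held by the hepatic stellate cell (HSC). Higd1b encodes a small protein of a family of mitochondrial proteins induced by low oxygen, Cox4i2 an oxygen-sensitive isoform of a cytochrome c oxidase subunit, Ephx3 an epoxide hydrolase, and Nrarp a feedback inhibitor of Notch signalling that is itself a Notch target.

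On mouse genome GRCm38 (mm10), with GENCODE gene models, Higd1b lies at chr11:102835849-102838040 on the plus strand, Ephx3 at chr17:32183770-32189549 on the minus strand, Nrarp at chr2:25180758-25183339 on the plus strand and Cox4i2 at chr2:152754173-152765037 on the plus strand. Rgs5, which encodes a regulator of G protein signalling long used as a pericyte marker and also found in hepatic stellate cells, lies at chr1:169655501-169695813 on the plus strand. Promoter sequence, from 250 bases before to 50 bases after the gene start in RefSeq on GRCm38.p6, was matched for 3 of these 5 genes. The promoters of these 3 genes are shown because they were the ones matched, and capitals mark the matches of a hypoxia response core.

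Ephx3, chr17:32189421-32189720, minus strand: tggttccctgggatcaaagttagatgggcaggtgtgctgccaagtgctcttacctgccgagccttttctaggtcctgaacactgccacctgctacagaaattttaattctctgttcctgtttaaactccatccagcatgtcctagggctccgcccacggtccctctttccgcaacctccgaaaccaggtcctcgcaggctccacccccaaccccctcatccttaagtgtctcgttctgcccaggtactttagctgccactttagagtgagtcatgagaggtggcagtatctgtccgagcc

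Nrarp, chr2:25180508-25180807, plus strand: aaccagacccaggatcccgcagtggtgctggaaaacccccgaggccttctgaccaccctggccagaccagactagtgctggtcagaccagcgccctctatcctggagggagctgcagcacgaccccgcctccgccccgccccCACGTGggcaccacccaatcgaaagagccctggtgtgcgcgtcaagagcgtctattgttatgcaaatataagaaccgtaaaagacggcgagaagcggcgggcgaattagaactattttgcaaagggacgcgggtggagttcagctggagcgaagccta

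Rgs5, chr1:169655251-169655550, plus strand: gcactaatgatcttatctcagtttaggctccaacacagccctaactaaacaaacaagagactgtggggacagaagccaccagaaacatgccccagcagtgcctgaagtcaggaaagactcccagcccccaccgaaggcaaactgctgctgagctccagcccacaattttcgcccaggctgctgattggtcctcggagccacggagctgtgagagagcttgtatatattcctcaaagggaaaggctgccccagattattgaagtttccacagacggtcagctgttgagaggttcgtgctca

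Both strands were searched for ACGTG, the core of the hypoxia response element, for TGGGAA, the core bound by the Notch effector RBPJ, and for the CArG box of serum response factor. Only the Nrarp promoter of the 3 held the hypoxia core, in 2 matches that overlap on opposite strands, whose first bases are at -108 and -107 from the gene start. No match of the RBPJ core or of the CArG box was found in any of these 3 windows. Of 32851 mouse promoters of this length, 19.6% held the hypoxia core, 25.6% the RBPJ core and 1.63% a CArG box. A match is a string of letters, and binding was not measured.

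Higd1b-positive cells made up 266 of 5737 cells of the uninjured library (4.64%, exact binomial 95% interval 4.11 to 5.21%) and 1272 of 5648 cells of the CCl4 library (22.5%, 21.4 to 23.6%). With 1 library per condition these shares have no replicate check, and their intervals cover counting error only. The libraries held 25965670 and 31095219 UMIs in all, and the members 815145 and 5949713 of them. A member had a median of 3077 UMIs and 1390.5 genes in uninjured liver and of 4707.5 UMIs and 1937.5 genes after CCl4. The 2 PF libraries shared 45 cell barcodes. A score against simulated doublets called 18 (6.77%) and 54 (4.25%) of the members, and no cell was removed for it.

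Most members carried few Higd1b UMIs. In uninjured liver 155 members (58.3%) had 1 UMI, 72 (27.1%) had 2 or 3 and 39 (14.7%) had 4 or more, up to 11. After CCl4 496 members (39.0%) had 1 UMI, 383 (30.1%) had 2 or 3 and 393 (30.9%) had 4 or more, up to 40. Free RNA in the droplets can give a UMI to a cell that does not express the gene, so the share was read beside cells that should lack it. Among cells with fibroblast markers and too few contractile UMIs for the comparison class, 32 of 3854 (0.83%) had a Higd1b UMI in uninjured liver and 181 of 1633 (11.1%) after CCl4, at median depths of 4918 and 4809 UMIs. Among contractile cells within the fibroblast limit, 234 of 1528 (15.3%) and 1239 of 2670 (46.4%) had one, at median depths of 3182.5 and 4380 UMIs. Thinned to 2000 UMIs per cell, the shares were 0.431% against 11.5% in uninjured liver and 4.69% against 34.1% after CCl4. The Higd1b signal was thus far above the level of fibroblast-marker cells in both libraries, and that level was itself higher after CCl4. The rule's limit on fibroblast genes kept out 50 (15.8%) and 496 (28.1%) of the cells with a Higd1b UMI.

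The values on either side of the limits show how sharp they were. After CCl4 the 130 members at the limit of 3 fibroblast UMIs had 6470 counts of Rgs5 and 657 of Dcn per 1000000 UMIs of the class (CPM), against 5122 CPM and 1557 CPM in the 72 cells with 4 such UMIs. In uninjured liver only 7 and 3 cells stood on these sides. Members with 1 Higd1b UMI had 2848 and 3101 CPM of Rgs5 in the uninjured and the CCl4 library, against 840 and 1824 CPM in the contractile cells without Higd1b that met the same fibroblast limit.

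The label of these cells was checked against markers. Mural genes were abundant in the members, with the floor of 10 contractile UMIs met by 234 (88.0%) in uninjured liver and 1239 (97.4%) after CCl4, although the rule did not ask for it. The 8 genes of a VSMC list summed to 26637 and 28101 CPM, led by Acta2 with 11761 and 13147 CPM. Of the HSC list of 9 genes, which summed to 659 and 723 CPM, Lrat and Reln, which mark retinoid-storing stellate cells, were at 1.23 and 0 CPM in uninjured liver and at 1.68 and 1.01 CPM after CCl4. The HSC list was led by Ecm1 with 282 and 399 CPM, and summed to 482 and 575 CPM in contractile cells without Higd1b within the fibroblast limit. Colec11 was the gene of that list that differed most in CPM from those cells, with 196 and 136 CPM in members against 39.7 and 34.4 CPM. Cells with at least 3 genes of the HSC list made up 8.65% and 20.05% of the members, against 4.25% and 8.53% of those contractile cells, and the part of such cells in the results was not tested. Endothelial genes summed to 14.7 and 15.0 CPM with Cdh5 at 0 in both libraries, leucocyte genes to 0 and 2.19 CPM with Ptprc at 0, hepatocyte genes to 13.5 and 23.4 CPM and cholangiocyte genes to 3.68 and 2.69 CPM. Mesothelial genes summed to 0 and 7.56 CPM, Schwann cell genes to 3.68 and 7.06 CPM and erythroid genes to 4.91 and 5.71 CPM. Pericyte-like is a working name. Higd1b chose the cells and lends the name no support, and Ephx3, Nrarp, Cox4i2 and Rgs5 were also detected in contractile cells without Higd1b, at the shares and levels given next. Rgs5 was abundant in the libraries of the HSC isolation too, at 2471 CPM in uninjured liver, 698 CPM at 72 h after CCl4 and 2307 CPM after 6 weeks of CCl4 in the cells that did not meet the rule, beside 2848 and 3101 CPM in members with 1 Higd1b UMI.

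Joint detection of Ephx3, Nrarp and Cox4i2 was more frequent in members than in the whole comparison class. In uninjured liver 76 of 266 members (28.6%) had UMIs of all of Ephx3, Nrarp and Cox4i2, against 82 of 1470 Higd1b-negative contractile cells (5.58%). After CCl4 719 of 1272 members (56.5%) had all of them, against 345 of 2392 comparison cells (14.4%). Members without any of these genes numbered 19 (7.14%) and 42 (3.30%). These counts are not at matched depth. Each gene alone was also more frequent in members, so the counts do not show that the genes went together within cells. After thinning to 2000 UMIs, which left out 39 and 83 shallower members, Ephx3 was found in 31.3% of uninjured members and 55.3% of CCl4 members, Nrarp in 52.0% and 62.5%, Cox4i2 in 75.3% and 72.8%, and Rgs5 in 78.0% and 88.9%. In contractile cells without Higd1b within the fibroblast limit the thinned shares were 8.98% and 23.3% for Ephx3, 29.7% and 35.0% for Nrarp, 46.9% and 54.8% for Cox4i2, and 39.5% and 63.5% for Rgs5. Each marker was more frequent in members in both libraries at matched depth.

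Before the 10X levels are compared, the comparison class needs a remark. Of the Higd1b-negative contractile cells, 176 (11.97%) in uninjured liver and 961 (40.2%) after CCl4 were over the fibroblast limit that the members had to meet. Levels are therefore also given against the 1294 and 1431 of these cells within that limit, a comparison added after the data had been seen. Median depth was 3276 and 5305.5 UMIs in the whole comparison class and 3189.5 and 3978 UMIs in the cells within the limit.

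Among the markers, Ephx3 stood at 274 CPM in uninjured members and 46.3 CPM in the comparison class, which is 5.91-fold (4.91 to 7.11, counting error only). After CCl4 it stood at 663 and 98.5 CPM, 6.73-fold, and against cells within the fibroblast limit the folds were 4.92 and 3.33. Nrarp was at 536 against 189 CPM in uninjured liver (2.84-fold) and 640 against 139 CPM after CCl4 (4.60-fold), and within the limit, where the comparison cells had 230 and 287 CPM, the folds were 2.33 and 2.23. Cox4i2 was at 802 against 328 CPM (2.45-fold) and 856 against 244 CPM (3.504-fold), and within the limit the folds were 2.03 and 1.80. Rgs5 was at 3781 against 686 CPM in uninjured liver (5.51-fold) and 6579 against 889 CPM after CCl4 (7.40-fold), and within the limit the folds were 4.50 and 3.61. Each of these folds was thus smaller within the limit, and each marker was still higher in members. Ndufa4l2, a subunit isoform linked to the low-oxygen response of the respiratory chain, was at 999 against 303 CPM and 1167 against 272 CPM. Notch3, the receptor that mural cells rely on, was at 407 CPM in members of both libraries, against 191 and 157 CPM, or 223 and 311 CPM within the limit. Pdgfrb, whose regulatory sequence drives the reporter in the sort, was at 456 against 235 CPM and 211 against 121 CPM. Abcc9, the sulfonylurea receptor of the vascular KATP channel, was not uniform, with 52.8 against 35.1 CPM in uninjured liver and 36.1 against 49.7 CPM after CCl4.

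**Figure D1:**
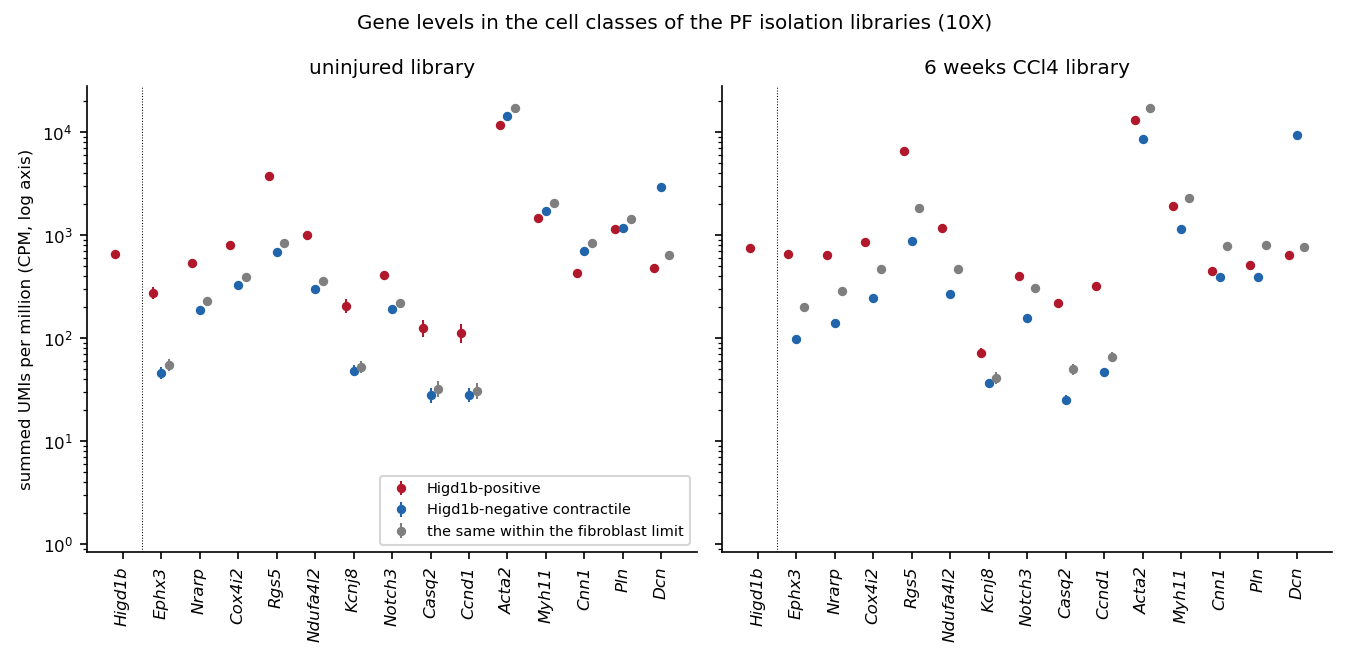
Level of 15 genes in CPM (log axis) in the 2 10X PF libraries, for Higd1b-positive cells, Higd1b-negative contractile cells and those of the latter within the fibroblast limit, with bars for 95% counting intervals. Ephx3 stands at 274 CPM in uninjured and 663 CPM in CCl4 members, above both comparison classes, while Acta2 is below the cells within the fibroblast limit in both libraries.

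Of 5915 genes compared in uninjured liver, 116 were at least 2-fold higher in members (1.96%) and 231 at least 2-fold lower (3.91%). After CCl4 250 of 6268 genes were at least 2-fold higher (3.99%) and 558 at least 2-fold lower (8.9%). Against the cells within the fibroblast limit 143 were higher (2.48%) and 72 lower (1.25%) of 5765 genes in uninjured liver, and 86 higher (1.47%) and 32 lower (0.547%) of 5851 after CCl4. Among genes of at least 50 CPM with large folds in both libraries, Fabp4, a fatty acid carrier best known from fat cells and capillary endothelium, stood at 169 against 27.9 CPM in uninjured liver (6.07-fold) and at 217 against 27.0 CPM after CCl4 (8.04-fold). Ccnd1, which encodes cyclin D1, was at 113 against 28.3 CPM and at 323 against 46.7 CPM. Casq2, a calcium store protein of muscle, was at 125 against 28.1 CPM and at 218 against 25.4 CPM. The other genes of this kind were Apold1 (5.45-fold and 4.79-fold), Cd24a (3.87 and 8.004), Serpini1 (3.81 and 4.86), Sept4 (3.71 and 3.72) and Adap2os (4.16 and 4.13), the last an antisense RNA whose UMIs may not all be its own.

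The genes lower in members depended on which contractile cells they were set against. The 12 named genes with the largest folds were Tgfbi, Ptn, Fbln5, Sfrp1, Fmo2, Lsp1, Inmt, Dcn, Osr1, Bicc1, Pcolce2 and Clec3b, the last of which the rule itself used, and several of them are matrix or fibroblast genes. Dcn, the proteoglycan decorin, was at 478 CPM in uninjured members and 2916 CPM in the whole comparison class, but at 637 CPM in the cells within the fibroblast limit. After CCl4 it was at 642, 9431 and 768 CPM in the same order. Tgfbi was 8.57-fold and 13.1-fold lower against the whole class and 1.34-fold and 1.34-fold against the cells within the limit. Against the latter, chosen after seeing the data, the leading genes were other ones. Cpe, which trims peptide hormones, stood at 124 against 397 CPM in uninjured liver and 119 against 349 CPM after CCl4, Ogn, a small leucine-rich proteoglycan of the vessel wall, at 90.8 against 342 CPM and 95.3 against 231 CPM, and Ptgis, which makes prostacyclin, at 76.1 against 190 CPM and 82.9 against 178 CPM. Ramp1, which completes the receptor for the dilator peptide CGRP, was at 328 against 622 CPM and at 275 against 520 CPM.

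The contractile list shows the same dependence. Acta2, smooth muscle actin, was at 11761 CPM in uninjured members, 14442 CPM in the comparison class and 17374 CPM in its cells within the fibroblast limit, and after CCl4 at 13147, 8571 and 17317 CPM. Over the 28 contractile genes measured, 8 were higher in uninjured members and the median log2 difference was -0.24, beside 0.02 for all genes compared. After CCl4 26 of 28 were higher with a median of 0.58, and against the cells within the fibroblast limit 3 of 28, with a median of -0.35. In uninjured liver 3 of 28 were higher against the cells within the limit, with a median of -0.45. Acta2 and 3 other genes of this list set the floor that comparison cells had to reach, while members did not have to, so nothing is read from this direction. A mural identity list had 20 and 21 genes measured. Of these 9 and 11 were at least 2-fold higher, beside 1.96% and 3.99% of all genes. At least 2-fold lower were 0 and 2, beside 3.91% and 8.9% of all genes. The medians were 0.91 and 1.02, beside 0.02 and 0.05. Within the fibroblast limit these counts were 7 and 4 of 20 higher and 0 lower, with medians of 0.80 and 0.46, where of all genes 143 of 5765 (2.48%) and 86 of 5851 (1.47%) were at least 2-fold higher, with medians of 0.05 and 0.04. Of 14 Notch pathway genes 2 and 6 were at least 2-fold higher, beside 1.96% and 3.99% of all genes, and none lower by that much. Within the limit 1 and 1 were at least 2-fold higher, beside 2.48% and 1.47% of all genes, with medians of 0.32 and 0.28. Of the matrix genes 0 of 29 and 0 of 32 were at least 2-fold higher. At least 2-fold lower were 20 and 29 of them, beside 3.91% and 8.9% of all genes. Against the cells within the fibroblast limit 1 of 25 and 0 of 26 were lower by that much, beside 72 of 5765 (1.25%) and 32 of 5851 (0.547%) of all genes.

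Members were also split by their number of Higd1b UMIs, a value that the rule itself used. Rgs5 was at 2848 CPM in uninjured members with 1 Higd1b UMI, 4176 CPM with 2 or 3 and 6893 CPM with 4 or more, and at 3101, 6201 and 10342 CPM after CCl4. Ephx3 went from 203 to 306 and 502 CPM in uninjured liver and from 297 to 643 and 1045 CPM after CCl4. Kcnj8, the pore of the vascular KATP channel, went from 125 to 249 and 452 CPM and from 43.5 to 57.4 and 114 CPM. These pericyte genes were thus higher in the bins with more Higd1b in both libraries. The bin with 1 UMI can hold cells whose UMI came from free RNA, and the part of such cells in these differences was not tested. Acta2 and Cnn1 ran the other way. Acta2 stood at 13067, 11357 and 7144 CPM in uninjured liver and at 16571, 13034 and 9820 CPM after CCl4, and Cnn1, the thin filament protein calponin, at 505, 392 and 159 CPM and at 679, 449 and 222 CPM. Casq2, also of the contractile list, was instead higher in the bins with more Higd1b, at 92.5, 153 and 209 CPM and at 90.3, 182 and 373 CPM. Ccnd1 was at 69.9, 158 and 209 CPM and at 127, 241 and 583 CPM. Dcn did not follow 1 course, with 419, 464 and 745 CPM in uninjured liver and 665, 695 and 578 CPM after CCl4. Median depth of the 3 bins was 3077, 2903 and 3152 UMIs in uninjured liver and 4317.5, 4443 and 5467 UMIs after CCl4, so that the bin with most Higd1b was also the deepest after CCl4, and the part of depth there was not tested.

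**Figure D2:**
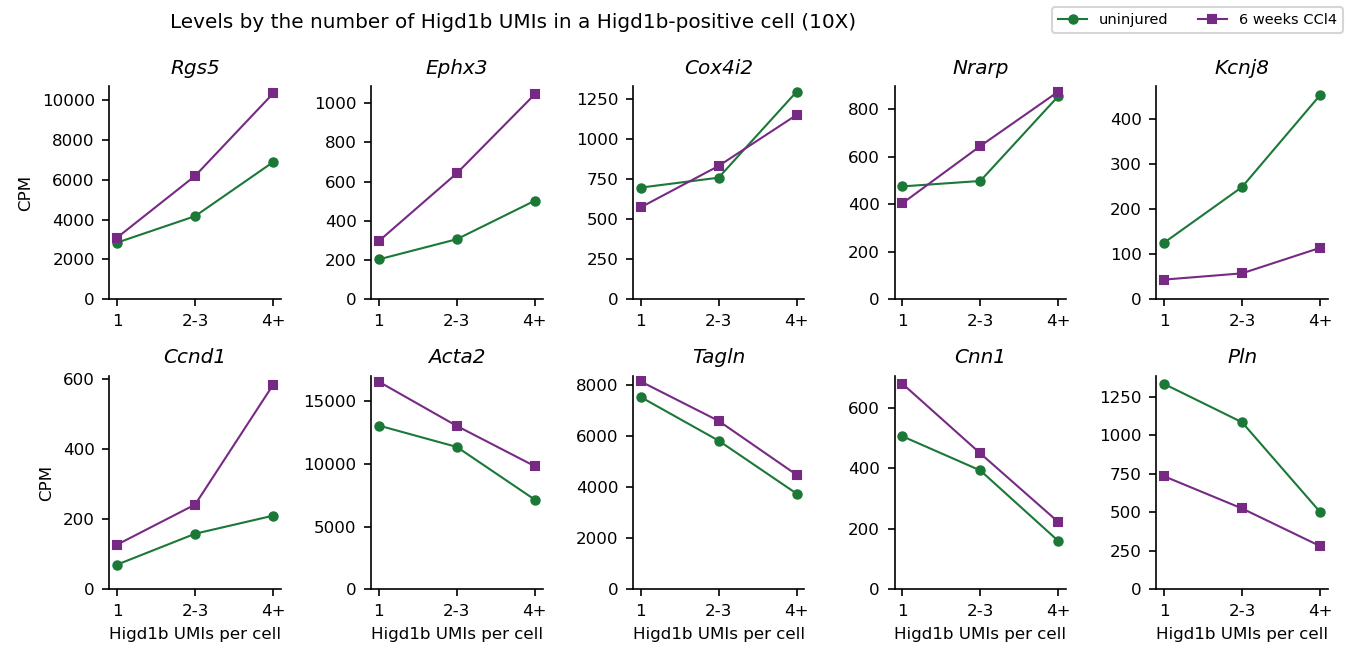
Level of 10 genes in CPM in Higd1b-positive cells with 1, with 2 or 3, and with 4 or more Higd1b UMIs, for the uninjured and the CCl4 library, as 1 sum per point without replicates. Rgs5 and Ephx3 are higher and Acta2 and Cnn1 lower in the bins with more Higd1b UMIs in both libraries.

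Between the conditions, 225 of 5984 genes were at least 2-fold higher (3.76%) and 80 at least 2-fold lower (1.34%) in CCl4 members, with 1 library each and no test. Rgs5 was 1.74-fold higher and Ephx3 2.42-fold higher after CCl4, and in contractile cells without Higd1b within the fibroblast limit the same genes were 2.17-fold and 3.58-fold higher. CCl4 members also held more cells with 4 or more Higd1b UMIs, 30.9% against 14.7%. In members with 1 Higd1b UMI, Rgs5 was at 2848 and 3101 CPM and Ephx3 at 203 and 297 CPM in uninjured and CCl4 liver. In those with 4 or more, Rgs5 was at 6893 and 10342 CPM and Ephx3 at 502 and 1045 CPM. The part of this mix was not tested. Cox4i2 (1.07-fold) and Notch3 (0.999-fold) stood at almost the same level in members of both libraries. Among genes of at least 100 CPM, the largest fold was that of Dbp, a transcription factor of the circadian clock, from 7.36 to 103 CPM (14.0-fold, 6.37 to 38.2), and in contractile cells without Higd1b within the fibroblast limit it was 6.61-fold. Tbx20, a T-box transcription factor, went from 17.2 to 119 CPM, Unc5b, a netrin receptor, from 29.4 to 163 CPM, and Smad6, an inhibitor of BMP signalling, from 25.8 to 108 CPM. Their folds were 6.94, 5.54 and 4.18 in members and 4.39, 5.99 and 1.76 in those contractile cells. S100a4, a calcium-binding protein, went from 68.7 to 290 CPM (4.22-fold against 2.56-fold). The other named genes were Gm12840 (4.75-fold), a long noncoding RNA, Syt5 (4.61), 2900026A02Rik (3.89), Ralgapa2 (3.31), Crispld2 (3.12), the thrombin receptor F2r (3.08) and Ggt5 (3.01).

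Among the genes of lower level in CCl4 members was Kcnj8, described above with the Higd1b bins. It went from 205 to 72.8 CPM, while in contractile cells without Higd1b within the fibroblast limit it went from 52.5 to 41.5 CPM. Vtn, the adhesion protein vitronectin, known as a pericyte marker in brain, went from 209 to 69.4 CPM, and from 27.8 to 23.7 CPM in those cells. Kcnk3, a background potassium channel, went from 221 to 92.4 CPM, Pln, the brake on the calcium pump of the sarcoplasmic reticulum, from 1150 to 512 CPM, and Cxcl12, a chemokine, from 265 to 118 CPM. Pln was also lower in the contractile cells without Higd1b, at 1453 and 809 CPM. The other named genes were Nrgn (3.15-fold lower), Ddit4l (2.81), Otud1 (2.78), Rrad (2.77), Gem (2.40), AW011738 (2.39) and Rasl11b (2.31), of which Rrad and Gem encode small GTPases that restrain calcium channels. Neither these differences nor the difference between the classes has a replicate. Over the lists, the median log2 difference was -0.01 for 20 mural identity genes, of which 3 were at least 2-fold lower, 0.08 for 27 contractile genes, 0.16 for 14 Notch pathway genes and -0.48 for 17 immediate early genes, beside 0.03 for all genes compared.

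The SSeq2 plates held 2292 wells, of which 2065 were kept. Wells with at least 10 reads of Higd1b per 1000000 reads (RPM) and at most 600 RPM of Cd34, Clec3b and Dpt numbered 407, and 401 of them (98.5%) also had the floor of 2000 RPM of contractile genes that defined the 565 Higd1b-negative contractile wells. The median depth was 425939 reads and 3706 genes in positive wells and 444819 reads and 3376 genes in negative wells. Of 632 wells with fibroblast markers 2 (0.316%) reached 10 RPM of Higd1b, at a median depth of 447210 reads. Reads were summed over the wells of 1 mouse on 1 plate, here called a portion. Mice of the same name occur on several plates and the labels do not tell if they are the same animals, so p-values may partly measure technical spread between portions. In 14 portions, 5 uninjured, 4 CCl4 and 5 BDL, both classes had at least 5 wells and were compared with the portion as a block, which pairs the classes of the same mouse.

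Of 11241 genes tested, 138 rose (1.23%) and 205 fell (1.82%) in Higd1b-positive wells, with edgeR's quasi-likelihood test at an adjusted p of 0.05. Against the 488 negative wells within the fibroblast limit, 87 of 11007 genes rose (0.79%) and 79 fell (0.718%), and 74 of the 138 (53.6%) and 59 of the 205 (28.8%) passed there too. Of the 138, 137 were in that table and 137 kept their direction, and of the 205, 173 were in it and 172 kept their direction. The 8 genes used to choose the wells were left out of the test. Among them the median over portions of Acta2 was 21897 CPM in positive and 29936 CPM in negative wells, and that of Tagln 3371 and 5330 CPM.

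All of the markers that could be tested rose. Ephx3 ranged from 533 to 2350 CPM over the 14 portions in positive wells, with a median of 1245 CPM, and from 62.3 to 1120 CPM in negative wells, with a median of 224 CPM. It was higher in positive wells of 14 of 14 portions, by 2.30 ± 0.23 on the log2 scale (edgeR adjusted p = 2.1e-05, ± is the standard error here and below). Nrarp ranged from 181 to 914 CPM with a median of 430 CPM, against 50.5 to 303 CPM with a median of 149 CPM. Its log2 difference was 1.48 ± 0.20 (edgeR adjusted p = 0.000245), in 14 of 14 portions. Cox4i2 ranged from 110 to 374 CPM with a median of 232 CPM, against 61.1 to 190 CPM with a median of 106 CPM, and rose by 1.26 ± 0.14 (edgeR adjusted p = 3.82e-05). The ranges of the classes overlapped for each of these genes, but no portion went against the direction.

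Of 22 mural identity genes tested 9 rose and none fell, with a median log2 difference of 0.81, beside 1.23%, 1.82% and -0.17 for all genes tested. Within the fibroblast limit 6 rose and 1 fell, beside 0.79% and 0.718%. Rgs5 ranged from 1968 to 10620 CPM in positive wells with a median of 5852 CPM, and from 325 to 5404 CPM in negative wells with a median of 1113 CPM. It rose by 2.14 ± 0.23 (edgeR adjusted p = 3.29e-05) in 14 of 14 portions. Ndufa4l2 rose by 1.52 ± 0.15, from a median of 125 to 355 CPM, and Notch3 by 0.96 ± 0.12, from 484 to 920 CPM, both in 14 of 14 portions. Pdgfrb, the PDGF-B receptor, rose by 0.85 ± 0.15, and Tbx2, a T-box factor, by 0.96 ± 0.17. The connexins Gja4 and Gjc1, which couple mural cells electrically, rose by 0.77 ± 0.17 and 0.93 ± 0.20. Rgs4, a relative of Rgs5, rose by 0.96 ± 0.20 and Heyl, a Notch effector, by 0.41 ± 0.11. Within the fibroblast limit Gja4 (edgeR adjusted p = 0.0876), Gjc1 (0.0974), Rgs4 (0.0525) and Heyl (0.487) did not pass. Not every gene known from pericytes passed. Kcnj8 differed by 0.90 ± 0.44 (edgeR adjusted p = 0.49) in the same direction in 11 of 14 portions, Vtn by 3.21 ± 1.27 (0.292), Abcc9 by 0.35 (0.845) and Cspg4, the proteoglycan NG2, by 0.32 (0.212).

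The Notch pathway list had 5 of 19 genes up and none down, with a median of 0.24, and 4 of 18 up within the fibroblast limit, beside 1.23% and 0.79% of all genes. Heyl did not pass there. Beside Nrarp, Notch3 and Heyl these were the ligand Jag1, which rose by 0.68 ± 0.12, and Dtx3, of the Deltex family, which rose by 0.72 ± 0.11, each in 14 of 14 portions. Hes1, a common Notch target, differed by 0.52 and missed the threshold (edgeR adjusted p = 0.0917). In the list of oxygen response and respiratory isoforms 3 of 19 rose and none fell, and within the fibroblast limit 3 rose and 1 fell, beside the same shares of all genes for the rise and 0.718% for the fall. Epas1, which encodes HIF-2α, was 1 of them and rose by 0.75 ± 0.11, with Cox4i2 and Ndufa4l2 as the others, while the median of that list was -0.10.

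Among channels and transporters 2 of 24 rose, beside 1.23% of all genes tested, and 1 of 24 within the fibroblast limit, beside 0.79%. Ano1, a calcium-activated chloride channel that depolarises mural cells, rose by 1.35 ± 0.18 from a median of 161 CPM (89.8 to 407) to 507 CPM (190 to 771). Atp1b2, a subunit of the sodium pump, rose by 0.63 ± 0.13 and did not pass within the limit (edgeR adjusted p = 0.0929). Of 31 vasoactive receptors and signalling genes 6 rose and 4 fell, beside 1.23% and 1.82% of all genes, and within the limit 4 rose and 1 fell of 29, beside 0.79% and 0.718%. The soluble guanylate cyclase subunits Gucy1b3 and Gucy1a3, which sense nitric oxide, rose by 0.93 ± 0.16 and 0.41, and the endothelin receptor Ednra rose by 0.72 ± 0.16, of which Gucy1a3 (edgeR adjusted p = 0.383) and Ednra (0.058) did not pass within the limit. Ramp1 fell by 0.64 in the same wells (edgeR adjusted p = 0.00733). These sets held members that moved in both directions or not at all, and their medians were 0.26 and -0.02.

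Contractile genes fell more often than they rose, with 10 of 28 down and 1 up at a median of -0.30, beside 1.82%, 1.23% and -0.17 for all genes. The contractile floor was asked of negative wells only, though 401 of the 407 positive wells met it too. With the floor asked of both classes, 132 genes of any kind rose and 197 fell, and the list was not counted in that fit. Cnn1 ranged from 371 to 1465 CPM in positive and from 730 to 1896 CPM in negative wells, with medians of 584 and 1426 CPM. It was lower in 14 of 14 portions, by -1.06 ± 0.15 on the log2 scale (edgeR adjusted p = 0.000269). Csrp1, an actin-binding LIM protein, fell by 0.79 ± 0.11 and Actg2, smooth muscle gamma-actin, fell by 0.68 ± 0.12. Tnnt2, a troponin, fell by 1.23 ± 0.29, and Smtn, Synpo2, Dstn, Flna and Pdlim7 fell with log2 differences between -0.60 and -0.35. Npnt passed too, but not within the fibroblast limit (edgeR adjusted p = 0.356). Casq2, the only contractile list gene that rose, did so by 1.37 ± 0.29 in 12 of 14 portions, and missed the threshold within the limit (edgeR adjusted p = 0.0615). Pln did not differ beyond its error, with medians of 968 and 925 CPM and a log2 difference of -0.04 ± 0.11 (edgeR adjusted p = 0.976). Within the fibroblast limit 15 of the 28 fell and none rose, beside 0.718% and 0.79% of all genes.

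**Figure D3:**
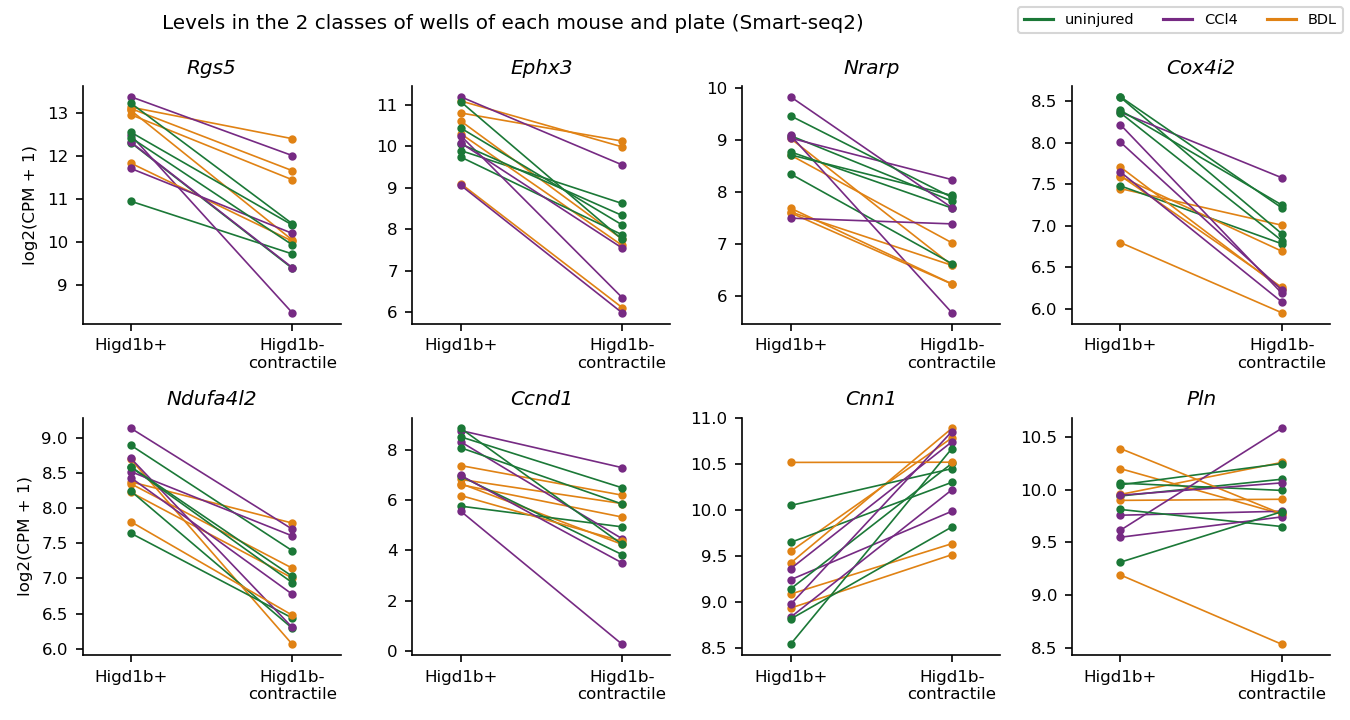
Level of 8 genes as log2(CPM + 1) in Higd1b-positive and Higd1b-negative contractile wells of the 14 SSeq2 portions, with a line for each portion coloured by condition. Rgs5, Ephx3, Nrarp, Cox4i2, Ndufa4l2 and Ccnd1 are higher in positive wells of 14 of 14 portions, Cnn1 is lower in 14 of 14, and the lines of Pln cross.

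The genes named from the 10X cells were read in the same wells. Ccnd1 ranged from 46.2 to 466.4 CPM in positive wells, with a median of 125 CPM, and from 0.195 to 157 CPM in negative wells, with a median of 25.4 CPM. It rose by 2.48 ± 0.41 (edgeR adjusted p = 0.00122), and Cd24a, a small surface glycoprotein, by 2.35 ± 0.38, from 64.9 to 376 CPM, both in 14 of 14 portions. Fabp4 rose by 2.15 ± 0.55, Apold1 by 1.71 ± 0.27, Sept4 by 1.38 ± 0.17 and Serpini1 by 1.16 ± 0.16, of which Fabp4 did not pass within the fibroblast limit (edgeR adjusted p = 0.0884). The genes chosen as lower against contractile cells within the fibroblast limit were mostly lower here too, against all negative wells. Of these wells 77 (13.6%) were over that limit, and values of these genes within it are not given here. Cpe ranged from 32.7 to 611 CPM in positive and from 107 to 1456 CPM in negative wells, with medians of 252 and 956 CPM, and fell by 1.83 ± 0.25 (edgeR adjusted p = 0.000269). Ogn fell by 2.99 ± 0.52, and the other genes that fell were Ptgis (log2 difference -3.02), Dpysl3 (-2.31), Cdc42ep3 (-1.54), Tgm2 (-1.48), Adamts5 (-1.39) and Lmcd1 (-1.38), while Psme4 (edgeR adjusted p = 0.642) and Lims2 (0.105) did not pass.

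Genes with the largest rise in the wells were mostly close to 0 in the negative class, where a fitted fold depends on the prior count. Vipr1, a receptor for vasoactive intestinal peptide that is also on the HSC list, ranged from 3.42 to 169 CPM in positive wells with a median of 55.7 CPM, against 0 to 24.6 CPM with a median of 0. It passed with an adjusted p of 0.00228 by edgeR and was higher in 13 of 14 portions. With same-named mice pooled across plates Vipr1 did not pass (edgeR adjusted p = 0.194), nor did Tnfrsf21 (0.314) and Nostrin (0.0756). In the 10X members Vipr1 was at 4.91 and 4.71 CPM. Colec11, a secreted lectin of the same list, differed by 2.53 ± 0.85 and did not pass (edgeR adjusted p = 0.16), with medians of 264 and 49.3 CPM. Tnfrsf21, death receptor 6, had medians of 28.4 and 0.018 CPM and an adjusted p of 0.03 by edgeR. Slc12a2, a chloride importer, rose by 2.67 ± 0.57 from a median of 17.3 to 116 CPM but missed the threshold without plate 2, plate 3 or plate 5, and the semaphorin Sema5b by 2.35 ± 0.41. Lin7a, Nostrin and Ajuba completed the named genes that rose. Within the fibroblast limit Nostrin (edgeR adjusted p = 0.0525) and Ajuba (0.0559) did not pass and Lin7a was not tested, being too low. Those that fell most were Wif1, Ereg, Hmcn1, Qpct, Thsd7a, Osr1, Sema3c, Setmar, Col8a2 and Mfap5, several of them secreted or matrix genes. Of these only Osr1 and Setmar were high enough to be tested within the limit, and both passed there. Among the others was Wif1, a Wnt inhibitor, at a median of 0.0224 CPM in positive and 15.1 CPM in negative wells.

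Matrix genes fell in 18 of 34 cases and rose in none, at a median of -1.27, beside 1.82% and -0.17 for all genes, and within the fibroblast limit in 6 of 33, at a median of -0.80, beside 0.718% and -0.14. Col1a1, the main fibrillar collagen, fell by 2.65 ± 0.34 and Bgn, biglycan, fell by 0.68 ± 0.07 (edgeR adjusted p = 2.1e-05). Dcn fell by 4.88 ± 0.67 against all negative wells and missed the threshold within the limit (edgeR adjusted p = 0.373), where Col1a1 still fell by 1.70 (0.029). Of 26 basement membrane genes 1 rose, the integrin Itga7, and 4 fell, and within the limit none rose, with Itga7 at an adjusted p of 0.449 by edgeR, and 4 fell. In the lists of 18 immediate early, 12 heat shock and 7 cell cycle genes none passed in either direction, and within the limit 1 heat shock gene, Hspb1, fell (edgeR adjusted p = 0.0213).

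**Figure D4:**
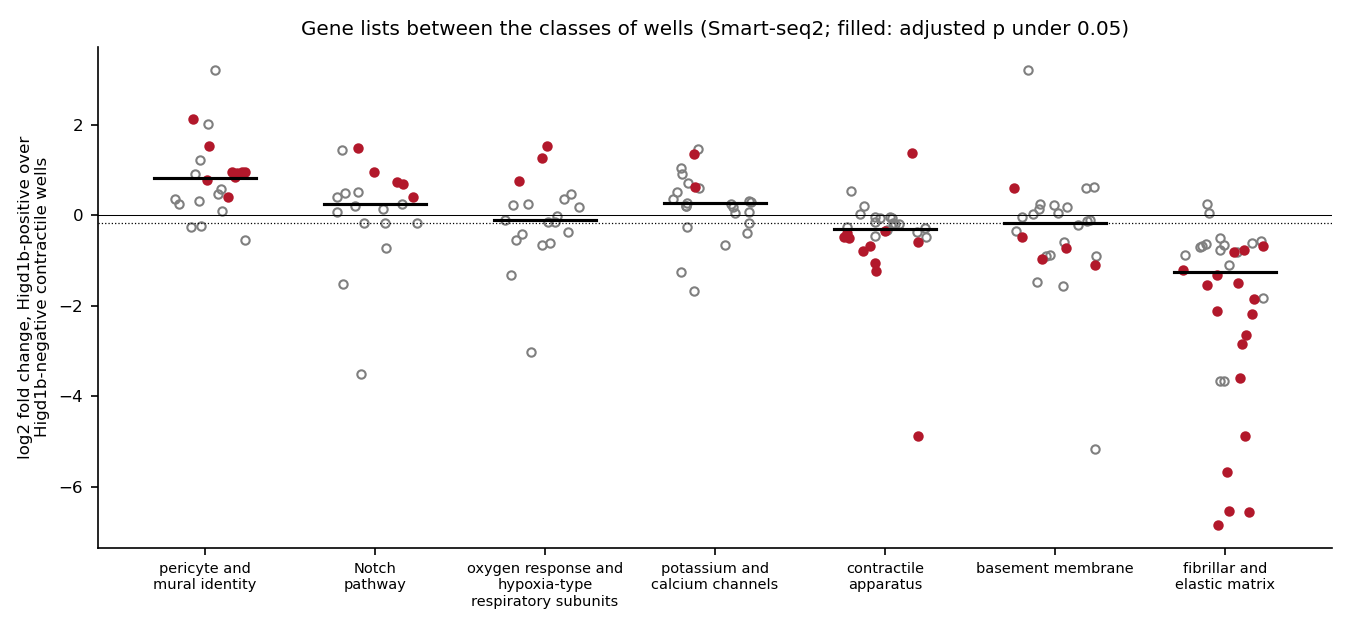
Log2 difference between Higd1b-positive and Higd1b-negative contractile wells for the tested genes of 7 lists, with filled points for an edgeR adjusted p under 0.05, a bar for the median of each list and a dotted line for the median of all genes (-0.17). Mural identity genes lie mostly above the line with 9 filled points, and matrix genes below it with 18.

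Conditions were then compared within the positive wells, over 5 uninjured, 4 CCl4 and 5 BDL portions. The CCl4 and BDL comparisons share the uninjured portions. After CCl4 none of 11844 genes passed in either direction by edgeR (0% each way), with 344 higher and 296 lower at an unadjusted p under 0.05, and DESeq2 called 42 and 42. With so few portions, missing the threshold does not show that a level was the same in both conditions. The markers differed by less than their standard errors, with Ephx3 at 0.02 ± 0.40, Nrarp at 0.15 ± 0.40, Cox4i2 at -0.22 ± 0.26 and Rgs5 at 0.15 ± 0.38 on the log2 scale (edgeR adjusted p = 1 for each). Of the genes that stood apart between the 10X libraries, Kcnj8 differed by 0.26 ± 0.66, Pln by -0.13 ± 0.22, Tbx20 by 0.83 and Smad6 by -0.72 in these wells (adjusted p = 1 for each by edgeR).

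After BDL 4 genes rose (0.0338%) and 1 fell (0.00844%), with 479 higher and 199 lower at an unadjusted p under 0.05. Sparcl1, a matricellular protein of vessel walls, stood at 4995, 5749, 6381, 7459 and 7651 CPM in the uninjured portions and at 14120, 15852, 16047, 16784 and 17008 CPM in the BDL portions. The groups did not overlap, and Sparcl1 rose by 1.31 ± 0.12 (edgeR adjusted p = 4.13e-05). In the CCl4 portions it stood at 7049, 7352, 7650 and 8003 CPM, a log2 difference of 0.22 from uninjured. Plat, tissue plasminogen activator, stood at 8.03, 32.6, 35.7, 60.4 and 89.0 CPM in uninjured and at 424, 460, 497, 1039 and 1237 CPM in BDL portions, and rose by 4.02 ± 0.55 (edgeR adjusted p = 0.00705). Its CCl4 portions, at 65.7, 160, 181 and 223 CPM, overlapped the uninjured ones and lay below all BDL portions. Mfge8, a secreted factor that bridges dying cells and phagocytes, stood at 1169, 1222, 1312, 1502 and 1729 CPM in uninjured and at 2282, 2454, 2724, 3198 and 3641 CPM in BDL portions (1.04 ± 0.16, edgeR adjusted p = 0.0229). Dmp1, a matrix phosphoprotein best known from bone, was at or near 0 in the uninjured portions, with 0.657 CPM at most, and at 29.2, 40.3, 55.0, 127 and 229 CPM in the BDL portions (edgeR adjusted p = 0.00705). Its CCl4 portions, at 6.0, 6.99, 11.5 and 24.3 CPM, lay above all uninjured and below all BDL portions.

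The gene that fell after BDL was Egr1, an immediate early transcription factor. It stood at 3601, 3971, 4007, 5048 and 5306 CPM in uninjured and at 1043, 1104, 1440, 1749 and 2274 CPM in BDL portions, without overlap, and fell by 1.53 ± 0.26 (edgeR adjusted p = 0.0398). Its CCl4 portions stood at 2020, 2978, 5043 and 5133 CPM. Of the other immediate early genes none passed, and the median of the 18 was -0.56, beside 0.07 for all genes. With the plate as a term, Sparcl1 kept its call (1.32, edgeR adjusted p = 0.00467), while Plat (0.389), Dmp1 (0.379), Mfge8 (0.131) and Egr1 (0.541) did not. In 10 fits that each left out 1 portion Sparcl1 passed in all 10. Mfge8 and Egr1 each missed the threshold in 8, Dmp1 in 2 and Plat in 1. The 5 BDL portions carry the names of only 2 mice. With same-named mice pooled across plates no gene passed after BDL, Sparcl1 included (log2 difference 1.32, edgeR adjusted p = 0.448). Markers of other cell types also differed between these portions at low levels, without passing. Spp1, the gene of the cholangiocyte list that could be tested, was at 0 to 0.458 CPM in uninjured and 0.487 to 10.5 CPM in BDL portions (4.24 ± 1.42, edgeR adjusted p = 0.49). Alb, that of the hepatocyte list, was at 0 to 65.8 CPM in uninjured and 0 to 1.37 CPM in BDL portions (-5.68 ± 2.29, edgeR adjusted p = 0.675). The part of such cells in the changes after BDL was not tested. The pericyte markers did not pass after BDL. Cox4i2 stood at 178, 330, 340, 368 and 375 CPM in uninjured and at 115, 179, 197, 197 and 211 CPM in BDL portions (-0.83 ± 0.25, edgeR adjusted p = 0.384), and Ephx3 differed by 0.22 ± 0.38, Nrarp by -0.63 ± 0.38 and Rgs5 by 0.46 ± 0.36. None of 26 basement membrane genes other than Sparcl1 passed, at a median of 0.46.

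The share of positive wells among the mural wells of a portion, that is positive plus Higd1b-negative contractile wells, was compared over portions with at least 10 mural wells. It was 6.06, 11.5, 12.2, 25, 31.9 and 62.3% in 6 uninjured portions, 19.6, 26.6, 52.2 and 55.6% in 4 CCl4 portions and 43.0, 51.7, 62.3, 72.7 and 77.9% in 5 BDL portions. The share of 6.06% came from plate 6, with 2 positive and 31 negative wells, whose label names 1 mouse of the PF and 2 of the HSC isolation without saying which wells belong to which. The means were 24.8% ± 20.7 (SD, n = 6), 38.5% ± 18.0 (SD, n = 4) and 61.5% ± 14.5 (SD, n = 5). Portions were counted as separate units, although the 5 BDL portions carry the names of only 2 mice, as do the 4 CCl4 portions. No share with same-named mice pooled is given. BDL was higher than uninjured by 36.7 percentage points (exact two-sided permutation test, p = 0.0173, adjusted over the 2 comparisons 0.0346, smallest p possible 0.00433). CCl4 differed by 13.7 percentage points (exact two-sided permutation test, p = 0.314, adjusted 0.314, smallest p possible 0.00952). The uninjured group held both the lowest share and 1 of the highest, and it overlapped both injured groups. Within plates the BDL difference was 56.0 and 39.8 percentage points on plates 1 and 2 and -19.3 on plate 4, so that it did not hold on plate 4. The CCl4 difference was 25.4 on plate 3 and 7.48 on plate 5. Leaving out 1 portion at a time, the BDL difference ran from 32.6 to 44.2 percentage points, and 10 of the 11 fits had an adjusted p above 0.05, up to 0.0762 by the exact permutation test. Without the portion of plate 6 the difference was 33.0 percentage points (adjusted p = 0.0635, exact permutation test). A share of sorted wells counts cells that survived digestion and the gate, and a change in 1 class cannot be told apart from a change in the other.

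**Figure D5:**
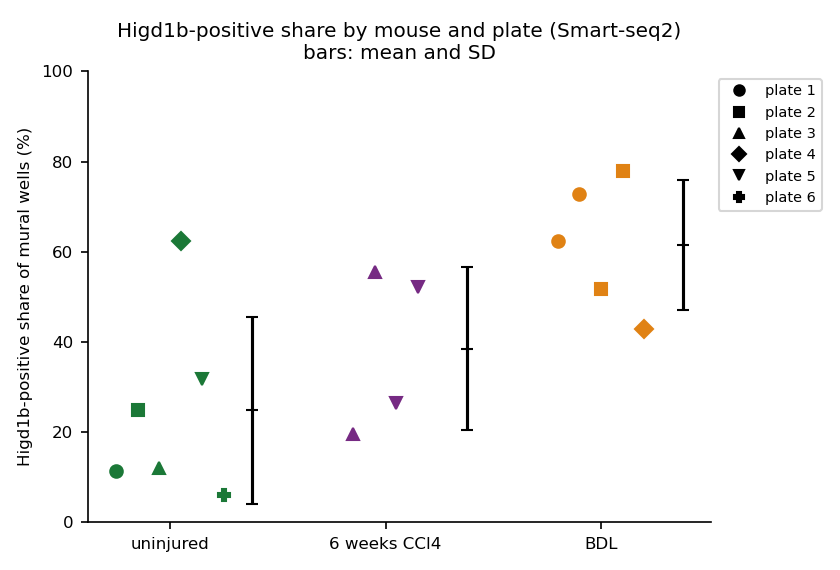
Share of mural wells that were Higd1b-positive, in percent, for each SSeq2 portion by condition, with the plate as the shape of the point and bars for mean and SD. Uninjured portions run from 6.06 to 62.3%, CCl4 portions from 19.6 to 55.6% and BDL portions from 43.0 to 77.9%.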

How the data were processed

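The authors deposited UMI counts per gene and cell for the 10X libraries and read counts per gene and well for the SSeq2 plates, both without normalization. The submitters' processing notes name Cell Ranger 2.1.0, STAR and mm10. Members and gene lists were chosen with earlier results of these data known. The genes named were: the markers, the 12 genes of at least 50 CPM with the largest fold held in both PF libraries each way, the 12 of at least 100 CPM between conditions each way, the 10 with the largest log2 fold change each way with an adjusted p under 0.05 per SSeq2 comparison, and list members with the highest levels or largest differences. Some of these genes are not reported here.

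UMIs were summed per class and library and given as CPM with exact Poisson intervals at 95%. Genes of at least 20 CPM in the higher class were compared, with a count of 0 set to 3 counts for folds. Doublets were scored against simulated doublets at a rate of 0.8% per 1000 cells. SSeq2 wells were left out when reads or genes were low, or the spike-in share high, by over 3 median absolute deviations, and for the wells kept the depth ranged from 124186 to 657323 reads. Reads were summed per class and portion, filtered with filterByExpr, scaled by TMM and tested with edgeR's quasi-likelihood test and Benjamini-Hochberg adjustment, with the portion as a block between classes, which come from the same mice, and without a block between conditions. The steps were first tested on simulated data. DESeq2 was an alternative, as were other limits, scalings, a plate term and leaving out portions or plates. Comparisons within the fibroblast limit and with same-named mice pooled across plates were added after the data had been seen. Python 3.11.15 (NumPy 2.4.6, SciPy 1.17.1, pandas 2.3.3, scikit-learn 1.9.0, matplotlib 3.10.9) and R 4.3.3 (edgeR 4.0.16, DESeq2 1.42.0, limma 3.58.1) were used. The authors' data for other 10X libraries entered only the count of cells, a check of the rule and the levels given for the HSC isolation.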

Additional observations from a re-analysis of the deposited data

Results flagged for a closer look

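In the uninjured portions the lowest level of Cox4i2 in positive wells, 178 CPM, stood far from the other 4 (330 to 375 CPM). In the BDL portions the lowest level of Rgs5, 3779 CPM, stood far from the other 4 (8083 to 9250 CPM). The highest uninjured level of Dmp1, 0.657 CPM, stood apart from values of 0 to 0.138 CPM. Of 30 groups examined in this way 3 stood out, and about 1 in 20 is expected to do so by chance.

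Cells that met the limits of the rule were also found in the libraries of the HSC isolation, which the comparisons did not use. They numbered 13 in uninjured liver, 9 at 72 h after CCl4 and 16 after 6 weeks of CCl4, with at most 2 Higd1b UMIs. In that order of libraries, the stellate marker Lrat was at 1249, 855 and 1969 CPM in these cells, beside 1253, 941 and 1520 CPM in the other cells. Ephx3 was at 50.3, 7.12 and 5.39 CPM beside 0.886, 0.301 and 0.596 CPM, and Acta2 at 272, 1090 and 1047 CPM beside 25.5, 871 and 152 CPM. Rgs5 was at 2698, 904 and 3291 CPM beside 2471, 698 and 2307 CPM, Cox4i2 at 40.3, 42.7 and 43.2 CPM beside 22.4, 32.9 and 22.2 CPM, and Nrarp at 0, 14.2 and 0 CPM.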

How the results depend on the processing

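Limits: the 10X comparisons rest on 1 library of 3 pooled mice per condition and on members chosen by their own UMIs. The comparison class held cells with fibroblast UMIs, and the counts of lower genes moved with that choice. The labels do not tell whether portions share mice.

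In uninjured 10X cells the genes at least 2-fold higher numbered 350 with at least 2 Higd1b UMIs per member, 178 after thinning and 53 at a minimum of 50 CPM, and the lower ones 371 with at least 2 UMIs, 99 at 50 CPM and 72 within the fibroblast limit. After CCl4 86 were higher within the fibroblast limit, and 333 at 50 CPM and 32 within the fibroblast limit were lower. Between conditions 389, 361 and 83 were higher and 227, 128 and 34 lower with at least 2 UMIs, after thinning and at 50 CPM. The share of members was 1.93% and 13.7% with at least 2 Higd1b UMIs, 3.97% and 14.9% with at most 1 fibroblast UMI, 5.51% and 31.3% without that limit, and 3.26% and 17.3% after thinning, in uninjured and CCl4 cells.

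Between the classes of wells DESeq2 called 297 higher and 733 lower, and the fibroblast limit gave 87 and 79. Without the replicate block 101 were higher and 130 lower. Leaving out 1 portion or plate gave 66 to 131 higher and 100 to 187 lower. The counts moved by over 1.5 times without plate 2 (84 higher, 131 lower), plate 3 (82 and 100) and plate 5 (66 and 126), and for lower genes without plate 1 (104) and without the first CCl4 portion of plate 3 (130). Outside these fits, 215 of 234 values of named genes kept their direction and side of the threshold, and 19 lost the call. With same-named mice pooled 118 were higher and 152 lower. Tnfrsf21, Nostrin and Ajuba missed the threshold in 11, 13 and 16 of 19 fits that left out a portion or plate, Slc12a2 without plate 2, 3 or 5, and Osr1 and Setmar without plate 2. With mice pooled Vipr1, Tnfrsf21, Nostrin, Ereg, Qpct and Setmar missed it.

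After CCl4 DESeq2 called 42 and 42, and leaving out portions gave 0 and 0. The log2 difference of Ephx3 was -0.090 and of Nrarp -0.029 with a plate term, and ran from -0.45 to 0.29 and from -0.21 to 0.44 without 1 portion, none of it past the threshold. After BDL the genes higher numbered 82 with DESeq2, 7 without the filter, 1 with a plate term, 2 at 50 RPM of Higd1b and 0 with same-named mice pooled. Those lower numbered 2 with RLE scaling, 29 with DESeq2, 3 without the filter and 0 with a plate term, with at least 1 Higd1b read, at 50 RPM or with mice pooled. Without 1 portion 1 to 9 were higher and 0 to 2 lower, with 2 higher without the first BDL portion of plate 2, 9 without the uninjured portion of plate 4 and 1 without that of plate 5, where Plat had an adjusted p of 0.0521 by edgeR. The cause was not tested. Differences in shares ran from 7.98 to 21.2 percentage points for CCl4 and from 32.6 to 44.2 for BDL, with an adjusted p of 0.0159 to 0.0762 by the exact permutation test for BDL, the lowest without the uninjured portion of plate 4.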

Other observations

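The direction of the inflammatory and acute phase list in members depended on the comparison class. Against all Higd1b-negative contractile cells 10 of 20 genes were higher in uninjured liver, with a median log2 difference of -0.07, beside 0.02 for all genes. At least 2-fold higher were 3 and at least 2-fold lower 4, beside 1.96% and 3.91% of all genes. After CCl4 4 of 21 were higher and 14 at least 2-fold lower, beside 8.9% of all genes. The median after CCl4 was -1.42, beside 0.05. Within the fibroblast limit, a comparison chosen after seeing the data, 16 of 17 were higher in uninjured liver, 7 at least 2-fold, with a median of 0.69, beside 143 of all 5765 genes at least 2-fold higher and a median of 0.05, and after CCl4 12 of 16 were higher, 1 at least 2-fold, with a median of 0.34, beside 86 of all 5851 genes and 0.04. Ifitm3, an antiviral membrane protein, was at 1121 CPM in uninjured members, 919 CPM in the whole comparison class and 653 CPM within the limit, and at 1009, 1529 and 768 CPM after CCl4. In the SSeq2 wells 2 of 19 genes of the list rose and none fell within the same limit, and against all negative wells none of 22 rose and 2 fell, beside 87 of 11007 genes that rose within the limit and 138 that rose and 205 that fell of 11241 against all negative wells.

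Other clock genes were looked at after Dbp had been seen. In members Nr1d1, a clock repressor, was at 1.23 CPM in uninjured liver, from 1 UMI, and at 53.8 CPM after CCl4. Per3 went from 11.0 to 27.4 CPM and Per1 from 13.5 to 34.6 CPM, while Arntl, which acts in the opposite phase, went from 29.4 to 21.0 CPM and Cry1 from 29.4 to 12.4 CPM. In contractile cells without Higd1b within the fibroblast limit Nr1d1 went from 5.08 to 51.0 CPM and Arntl from 36.5 to 18.7 CPM. In the SSeq2 wells Dbp differed by 2.09 ± 0.94 after CCl4 and by 3.31 ± 0.95 after BDL on the log2 scale (edgeR adjusted p = 0.906 and 0.35).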
